A study of Mus musculus with 6 samples.

Results

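Interferon-stimulated genes are the genes that cells switch on when an interferon reaches its receptor. The 33 members described here were chosen by name, as genes well known to be induced by interferon, and were found through the gene names in the array files, which held 27195 named genes in all. All 33 had at least 1 probe, with 57 probes between them, and 32 of the 33 could be tested. The exception was Mx1, an antiviral dynamin-like GTPase, whose probes were not well above background on all arrays of either group. No member differed between the groups at a limma adjusted p of 0.05, but the members moved together from array to array within each group.

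The arrays measured RNA from cultured bone marrow stromal cells of 3 NONMMUT002667-KO mice (KO) and of 3 wild-type mice (WT), all labelled male. NONMMUT002667 is the name of a non-coding transcript, and neither the age nor the strain of the mice nor the kind of deletion is given in the sources used here. In both groups the cells came from crushed, collagenase-digested femurs, were sorted as Sca-1+ CD29+ CD45- CD11b-, and were cultured and passaged before use. No interferon or other stimulus is named in the labels. Titles, source names and the organism field all say mouse, whereas the description and extraction fields speak of human blood; the titles were followed. The labels do not say whether a sample held 1 animal, and the p-values below cover only the variation among these 6 samples.

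Type I interferons bind a receptor made of IFNAR1 and IFNAR2, which activates the kinases JAK1 and TYK2. These phosphorylate STAT proteins, among them STAT2, which join IRF9 and bind a DNA element in the promoters of interferon-stimulated genes. Interferon gamma acts through its own receptor, and is a strong inducer of the guanylate-binding proteins and immunity-related GTPases. Several of the products, among them IRF7 and the RNA sensors, feed back into interferon production.

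Of the 33 members, 24 had a promoter in the RefSeq table (GRCm38.p6), taken as 250 bases before to 50 bases after the annotated start. A motif of GAAA, any 2 bases and GAAA, the core of the interferon response element, was searched on both strands (TTTC, any 2 bases and TTTC on the other), counting overlapping matches, and occurred in 16 of these 24 (66.7%), against 1079 of 27025 genes with a promoter in the table (3.99%). The 8 members without these letters in the window were Irf7, Irf9, Ifit2, Oasl1, Oasl2, Cmpk2, Ifi44 and Xaf1. The 250 bases before the start of 5 members with a match are given 5′ to 3′ on the strand of the gene. They were chosen because Ifit1, Rsad2 and Trim30a are among the members described in full below, because Isg15 held several matches, and because Gbp2 stands for the GTPases. Capitals mark the motif on either strand.
Ifit1 (chr19:34640639-34640888, plus strand): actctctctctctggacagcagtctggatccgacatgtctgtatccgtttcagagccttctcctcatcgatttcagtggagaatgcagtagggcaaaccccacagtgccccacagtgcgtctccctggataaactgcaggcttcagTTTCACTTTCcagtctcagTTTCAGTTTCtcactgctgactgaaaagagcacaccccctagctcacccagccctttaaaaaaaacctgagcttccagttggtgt
Isg15 (chr4:156200819-156201068, minus strand): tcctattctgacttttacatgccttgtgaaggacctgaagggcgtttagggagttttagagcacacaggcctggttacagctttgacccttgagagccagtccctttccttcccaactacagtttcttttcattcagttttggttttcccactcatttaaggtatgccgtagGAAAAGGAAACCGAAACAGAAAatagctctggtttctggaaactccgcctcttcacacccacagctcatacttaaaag
Rsad2 (chr12:26456453-26456702, minus strand): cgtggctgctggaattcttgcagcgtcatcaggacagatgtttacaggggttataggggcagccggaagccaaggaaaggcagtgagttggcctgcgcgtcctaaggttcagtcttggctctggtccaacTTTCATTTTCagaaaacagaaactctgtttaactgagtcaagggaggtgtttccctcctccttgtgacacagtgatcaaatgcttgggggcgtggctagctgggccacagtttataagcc
Trim30a (chr7:104465194-104465443, minus strand): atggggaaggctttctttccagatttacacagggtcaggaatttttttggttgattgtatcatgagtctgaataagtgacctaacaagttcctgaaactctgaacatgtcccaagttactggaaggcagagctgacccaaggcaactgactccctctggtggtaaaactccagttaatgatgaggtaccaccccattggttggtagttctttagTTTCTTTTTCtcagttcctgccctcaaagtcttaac
Gbp2 (chr3:142620413-142620662, plus strand): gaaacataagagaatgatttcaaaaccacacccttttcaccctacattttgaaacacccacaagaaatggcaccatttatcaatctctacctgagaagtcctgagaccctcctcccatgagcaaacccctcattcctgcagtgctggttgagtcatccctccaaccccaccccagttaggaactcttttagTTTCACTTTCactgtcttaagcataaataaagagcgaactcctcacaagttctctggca
The first base of the motif lay at -104 and at -85 in Ifit1, at -120 in Rsad2, at -36 in Trim30a and at -59 in Gbp2, counting -1 as the base just before the start. Isg15 held 3 overlapping matches, the first at -78 and the last at -66. These matches describe the sequence and do not show that a factor was bound.

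All 6 arrays were on 1 slide and 1 scan, with the KO arrays in 1 row of the slide and the WT arrays in the other, so slide row and group cannot be told apart. Between 49.0% and 53.0% of spots were well above background on KO arrays and between 54.3% and 56.7% on WT arrays. No probe is named for NONMMUT002667, so the knockout could not be checked on its target. KO replicate 1 and WT replicate 3 carried signal of Xist, the female-specific RNA of the silenced X chromosome, at -0.36 and -0.53 (log2 signal relative to the array's 75th percentile), against -5.86 at most on the other 4 arrays, and had no Y-linked signal, although all samples are labelled male. The member median, the order of the arrays and the differences that moved most are given also without these 2 arrays. Of the genes used for the sort, Ly6a (encoding Sca-1) and Itgb1 (CD29) were well above background on all 6 arrays, and so were Ptprc (CD45) and Itgam (CD11b), which the sort was set to remove. Of 19 macrophage and monocyte markers, 18 were well above background on all 6 arrays, with a mean level of 4.26 to 4.41 on KO arrays and of 4.15 to 4.30 on WT arrays. In a mixed culture, fewer cells of a type and less RNA per cell cannot be told apart.

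In the levels below, 0 is the array's 75th percentile over non-control spots, and all values are on the log2 scale. A difference is KO minus WT, so a positive value means a higher signal in KO cells. Each member is represented by its brightest tested probe. All 32 tested members were well above background on all 6 arrays.

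None of the 32 members passed an adjusted p of 0.05 in limma, as 12 of the 15371 tested genes did (0.0781%). At an unadjusted limma p under 0.05 there was 1 member with a higher value in KO cells (Trim30a; 6.94% of all genes) and 1 with a lower value (Ifi44; 8.03% of all genes). The difference was positive for 24 members and negative for 8, and 55.8% of all genes had a positive difference. The median member difference was 0.12, against 0.02 over all genes, and the differences ran between -0.75 and 0.38. Over 19 macrophage and monocyte markers the median was also 0.12. Leaving out 1 array turned the sign of the member median only for WT replicate 3. With WT replicate 3 left out it was -0.03, with KO replicate 3 left out 0.02, with KO replicate 2 or WT replicate 1 left out 0.21, and -0.08 without the 2 arrays with Xist signal, where 14 of 33 members had a positive difference. Without those 2 arrays the difference turned to -0.27 for Ifit1, to -0.04 for Oasl1, to -0.12 for Rsad2 and to -0.24 for Usp18. It was then -1.17 for Iigp1, against -0.55 with all arrays, and -0.43 for Ifit3, against -0.14. For Cmpk2 it was 0.02, against 0.33, for Dhx58 0.14, against 0.30, and for Irf7 0.06, against 0.18. None of these passed in either fit. The 95% interval of the difference lay within 1 log2 unit of 0 for 27 of the 32 members, against 93.5% of all genes, the other 5 being Oasl1, Iigp1, Rsad2, Cmpk2 and Ifi44.

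**Figure D1:**
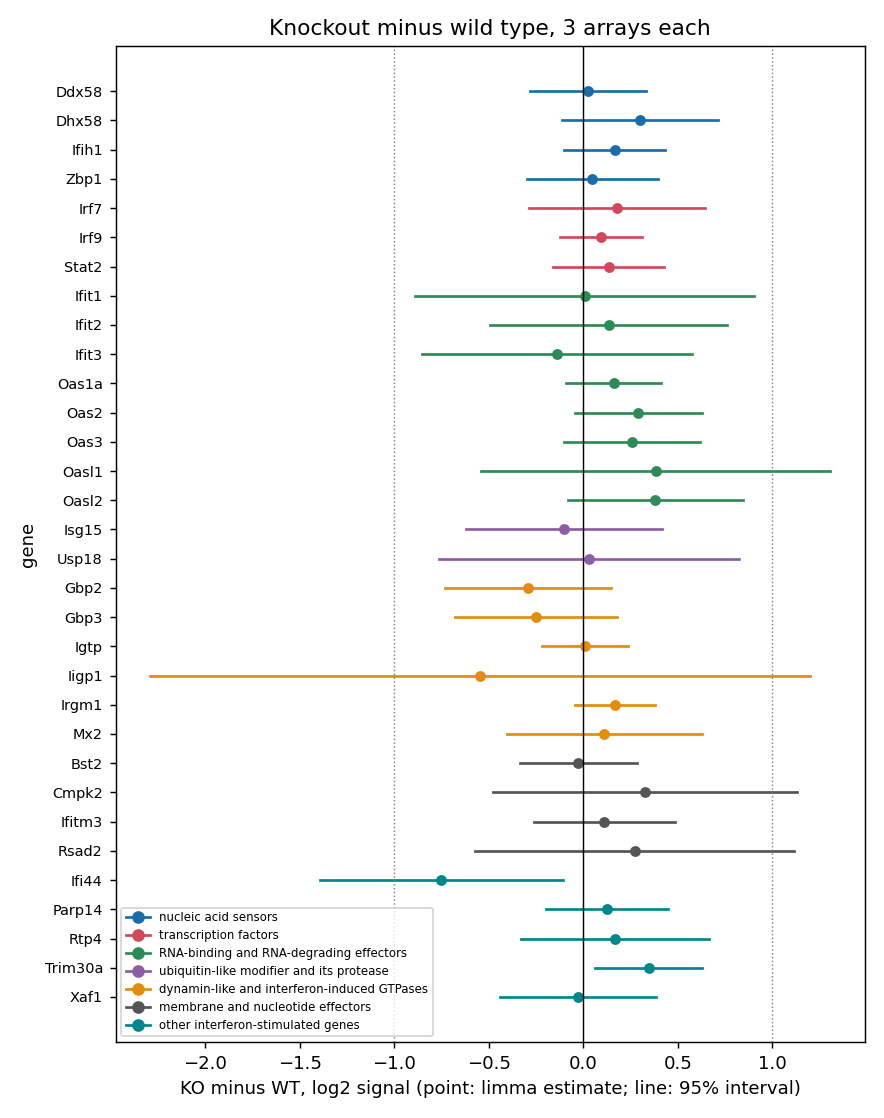
KO minus WT difference in log2 signal (x axis) of each tested member (y axis), with the limma estimate as a point and its 95% interval as a line, coloured by role. The differences run between -0.75 (Ifi44) and 0.38 (Oasl1), and the interval leaves out 0 for Ifi44 and Trim30a alone, neither of which passed after adjustment over all probes.

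The first role group binds or degrades foreign RNA. Ifit1, which binds viral RNA caps, had -2.52, -3.36 and -1.94 on the KO arrays, against -2.49, -2.27 and -3.07 on the WT arrays (probe at chr19:34723827-34723886, mm9). Its means were -2.60 ± 0.71 in KO cells and -2.61 ± 0.42 in WT cells (SD, n = 3 each), a difference of 0.01 with a standard error of 0.38 and a limma adjusted p of 0.996. The groups overlapped fully, and the array-to-array range within KO cells, 1.42, was far above the difference. Its relatives Ifit2 and Ifit3 differed by 0.13 and -0.14, with limma adjusted p of 0.859 and 0.874.

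The oligoadenylate synthetases make the messenger that activates RNase L. Oas2 had 2.26, 2.39 and 2.49 in KO cells, against 2.31, 2.14 and 1.82 in WT cells (chr5:121180343-121180402, mm9), a difference of 0.29 with a 95% interval of -0.04 to 0.63 and a limma adjusted p of 0.383. The lowest KO array lay below the highest WT array. Oas1a and Oas3 differed by 0.16 and 0.26, with limma adjusted p of 0.527 and 0.470. Oasl2, a synthetase-like protein, had 1.42, 1.14 and 1.61 in KO cells, against 1.38, 0.91 and 0.75 in WT cells (chr5:115362168-115362227, mm9). Its difference of 0.38 had an interval of -0.08 to 0.84 and a limma adjusted p of 0.413, with KO replicate 2 inside the WT range. Oasl1, which in mice restrains Irf7 translation, had -0.44, -1.46 and -0.31 in KO cells, against -1.18, -0.51 and -1.66 in WT cells (chr5:115387861-115387920, mm9). KO replicate 2 and WT replicate 3 were the lowest of their groups, and the difference of 0.38 had an interval of -0.54 to 1.31 and a limma adjusted p of 0.698.

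Isg15 encodes a ubiquitin-like modifier, and Usp18 the protease that removes it from proteins and also dampens receptor signalling. Isg15 had 2.10, 1.76 and 2.46 in KO cells, against 2.46, 2.30 and 1.88 in WT cells. Its difference was -0.10 with a limma adjusted p of 0.870, and the highest values of both groups were alike. Usp18 had -1.60, -2.07 and -1.02 in KO cells, against -1.19, -1.43 and -2.15 in WT cells, a difference of 0.03 with a limma adjusted p of 0.979.

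Among the sensors of foreign nucleic acid, Ifih1 (MDA5) differed by 0.17, Ddx58 (RIG-I) by 0.02, their regulator Dhx58 (LGP2) by 0.30 and Zbp1, a sensor of left-handed nucleic acid, by 0.05, with limma adjusted p between 0.470 (Dhx58) and 0.952 (Ddx58). A dimmer Zbp1 probe gave -4.64, -4.73 and -4.62 in KO cells, against -3.82, -4.02 and -4.27 in WT cells, with a limma adjusted p of 0.098. Its signal passed the background flag on 0 KO arrays, so the KO values are bounds, and the 2 Zbp1 probes had opposite signs.

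Irf7, Irf9 and Stat2 are the transcription factors among the members, and their groups overlapped. Irf7, which drives interferon genes, had 2.54, 2.34 and 2.91 in KO cells, against 2.72, 2.41 and 2.13 in WT cells, a difference of 0.18 with a limma adjusted p of 0.726. Irf9 and Stat2, parts of the complex that binds the response element, differed by 0.09 and 0.13, with limma adjusted p of 0.688 and 0.660.

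The interferon-induced GTPases attack viruses or the vacuoles of intracellular microbes. WT replicate 2 had the highest value of its group for 4 of 6 tested GTPases, Gbp2, Gbp3, Igtp and Iigp1 (39.7% of all genes), and for 5 other members, Ifit1, Oasl1, Ifih1, Zbp1 and Parp14. Whether GTPases differ from the other members in this was not tested. Iigp1 had -2.59, -2.43 and -1.72 in KO cells, against -1.66, -0.16 and -3.28 in WT cells. The WT arrays spanned 3.11 log2 units, the widest range of any tested member, and enclosed all KO values, and the difference of -0.55 had an interval of -2.30 to 1.20 and a limma adjusted p of 0.778. Gbp2 had -0.02, -0.08 and 0.13 in KO cells, against 0.11, 0.73 and 0.07 in WT cells, a difference of -0.29 with a limma adjusted p of 0.511. Without WT replicate 2 the difference was -0.08 for Gbp2 and 0.22 for Iigp1. Gbp3 had -1.45, -1.25 and -1.08 in KO cells, against -1.03, -0.67 and -1.32 in WT cells, and a limma adjusted p of 0.562. Mx2, a relative of Mx1, and Igtp differed by 0.11 and 0.01. Irgm1, which controls the other immunity-related GTPases, had 1.69, 1.65 and 1.84 in KO cells, against 1.63, 1.59 and 1.46 in WT cells. All its KO values were above all WT values, as for 12.0% of all genes, with a difference of 0.17 and a limma adjusted p of 0.436, but its other tested probes gave -0.09 and 0.08. The brighter Mx1 probe had -3.64, -4.27 and -3.75 in KO cells, against -3.91, -3.62 and -5.60 in WT cells, and passed the background flag on 1 KO array and 2 WT arrays.

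Of the members that act on membranes or nucleotides, Rsad2 (viperin), which makes a chain-terminating nucleotide, had -0.87, -1.77 and -0.63 in KO cells, against -0.99, -1.17 and -1.91 in WT cells (chr12:27127859-27127918, mm9). Its difference was 0.27 with an interval of -0.57 to 1.11 and a limma adjusted p of 0.773. Cmpk2, its neighbour on chromosome 12 and a mitochondrial nucleotide kinase, had -1.46, -1.93 and -0.95 in KO cells, against -1.39, -1.53 and -2.40 in WT cells, with a limma adjusted p of 0.706. Both genes were lowest on KO replicate 2 and WT replicate 3. Bst2 (tetherin), which holds budding virus at the cell surface, and Ifitm3, which blocks viral fusion, differed by -0.03 and 0.11, with limma adjusted p of 0.947 and 0.791.

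Ifi44 and Trim30a had the lowest unadjusted p among the members. Ifi44, an interferon-induced protein of the cytoplasm, had -2.78, -3.73 and -2.72 in KO cells, against -2.19, -2.34 and -2.45 in WT cells (chr3:151394035-151394094, mm9). All KO values were below all WT values, as for 10.4% of all genes. Its means were -3.08 ± 0.57 in KO cells and -2.33 ± 0.13 in WT cells (SD, n = 3 each), a 1.68-fold higher signal in WT cells, with a difference of -0.75, a standard error of 0.27, an unadjusted limma p of 0.0282 and an adjusted p of 0.261. Without KO replicate 2 the difference was -0.42, and with another background correction and quantile normalization it was -0.52. The signal on KO replicate 2 was near -3.99, the lowest value well above background on that array. A second, untested Ifi44 probe gave -3.87, -3.50 and -5.88 in KO cells, against -6.63, -1.67 and -4.60 in WT cells. That probe was well above background on 2 KO arrays and 1 WT array, and its groups overlapped, with a difference of -0.12. Trim30a, which in mice restrains inflammatory signalling, had 0.69, 0.68 and 0.89 in KO cells, against 0.54, 0.48 and 0.20 in WT cells (chr7:111560170-111560747, mm9). All KO values were above all WT values, as for 12.0% of all genes. The means were 0.75 ± 0.12 in KO cells and 0.41 ± 0.18 in WT cells (SD, n = 3 each). The difference of 0.34 (1.27-fold) had a standard error of 0.12, an unadjusted limma p of 0.0236 and an adjusted p of 0.246. Its other tested probes gave 0.44 and 0.36 in the same direction, with limma adjusted p of 0.178 and 0.267. Parp14, an ADP-ribosyltransferase, differed by 0.12 (limma adjusted p of 0.724), while its dimmer probe gave 0.32 with all KO values above all WT values and a limma adjusted p of 0.137. Xaf1, a promoter of apoptosis, and Rtp4, a receptor chaperone, differed by -0.03 and 0.17.

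**Figure D2:**
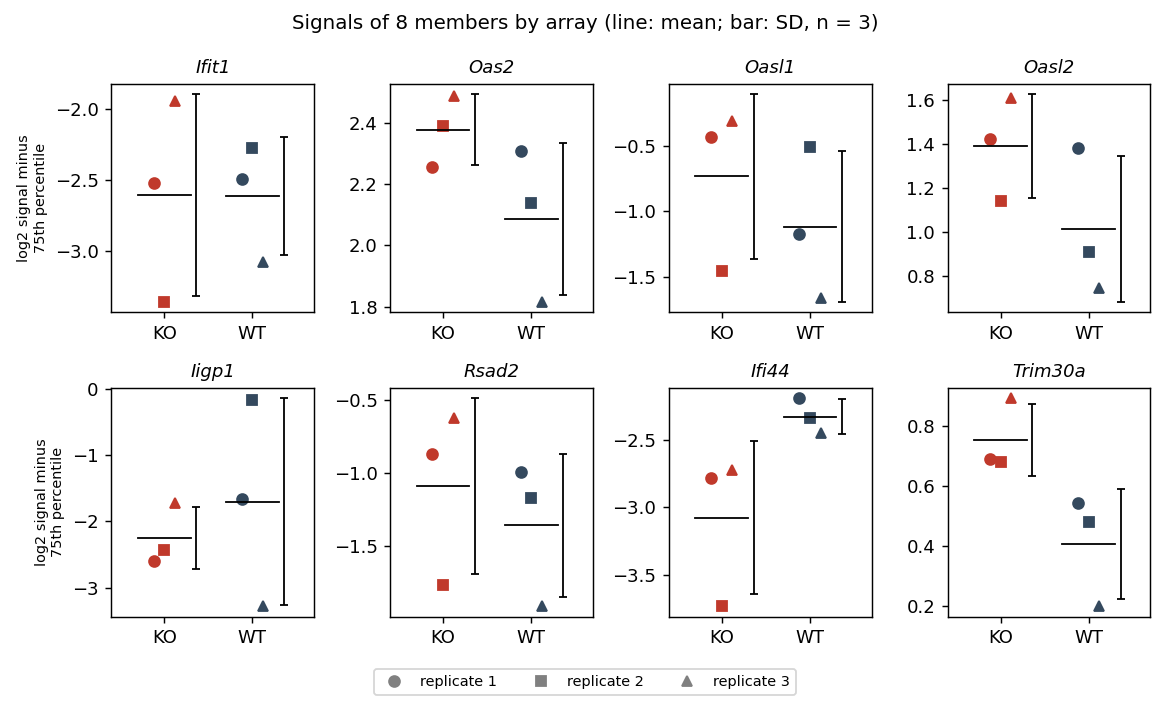
Log2 signal relative to the array's 75th percentile (y axis) in KO and WT cells for the 8 members described in full, with 1 point per array, the mean as a line and the SD (n = 3) as a bar. KO and WT points are apart for Ifi44 and Trim30a and overlap for the other 6 members, and the WT points of Iigp1 span 3.11 log2 units.

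**Figure D3:**
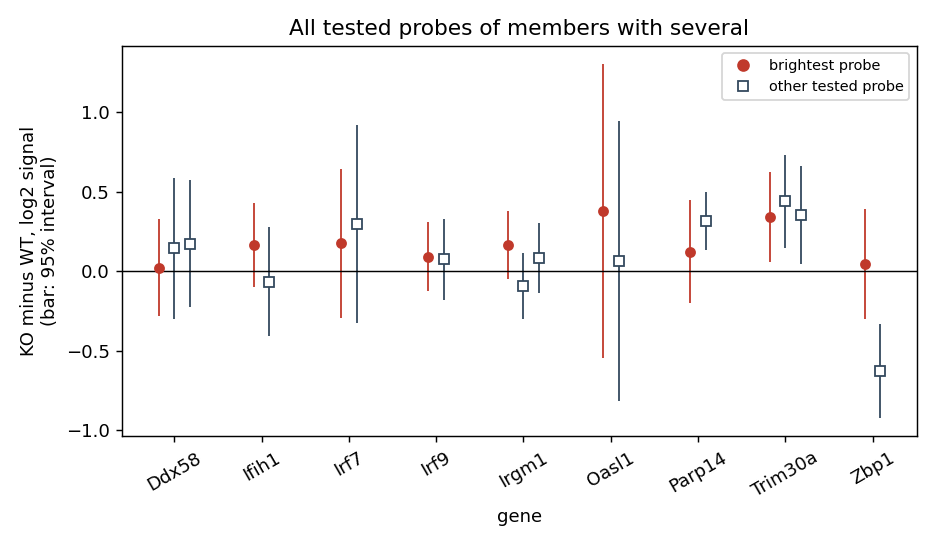
KO minus WT difference in log2 signal (y axis, bars for the 95% interval) of every tested probe of the 9 members with several tested probes (x axis), the brightest probe filled. The probes have both signs for 3 members, Ifih1, Irgm1 and Zbp1, and the 3 Trim30a probes lie between 0.34 and 0.44. The dimmer Ifih1 and Zbp1 probes were above background on 0 KO arrays and 3 WT arrays, so their KO values are bounds.

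What the members shared was their order across arrays of the same group. WT replicate 3 was the lowest WT array for 30 of 32 members, against 27.3% of all genes, the exceptions being Oas3 and Xaf1. WT replicate 1 was the highest for 23 members (29.9% of all genes) and WT replicate 2 for the other 9 (39.7% of all genes). KO replicate 3 was the highest KO array for 27 members (31.2% of all genes), and KO replicate 2 was the lowest for 23 (36.4% of all genes). Both KO replicate 2 and WT replicate 3 were lowest in their groups for 21 members, against 7.09% of all genes. Without the 2 arrays with Xist signal, KO replicate 3 was above KO replicate 2 for 29 members (52.9% of all genes) and WT replicate 1 above WT replicate 2 for 23 (44.7% of all genes). The members are not independent, since they share the same 6 samples, so these shares carry no test.

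Averaged over the 32 tested members after centring each on its mean over the 6 arrays, the level was 0.03, -0.20 and 0.27 on the KO arrays, and 0.16, 0.11 and -0.36 on the WT arrays. The highest and the lowest arrays of each group were therefore further apart than the groups. The median SD within a group was 0.216 for members in KO cells and 0.274 in WT cells, against 0.114 in KO cells and 0.116 in WT cells over all genes, and the median standard error of the difference was 0.18 for members against 0.10 over all genes. By role, the RNA-binding effectors had centred means of 0.13, -0.26 and 0.40 on the KO arrays, and 0.13, 0.04 and -0.44 on the WT arrays. The GTPases had -0.16, -0.17 and 0.13 on the KO arrays, and 0.12, 0.48 and -0.40 on the WT arrays, so that WT replicate 2 was highest for them. WT replicate 3 was the lowest WT array in the mean of all 7 role groups.

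**Figure D4:**
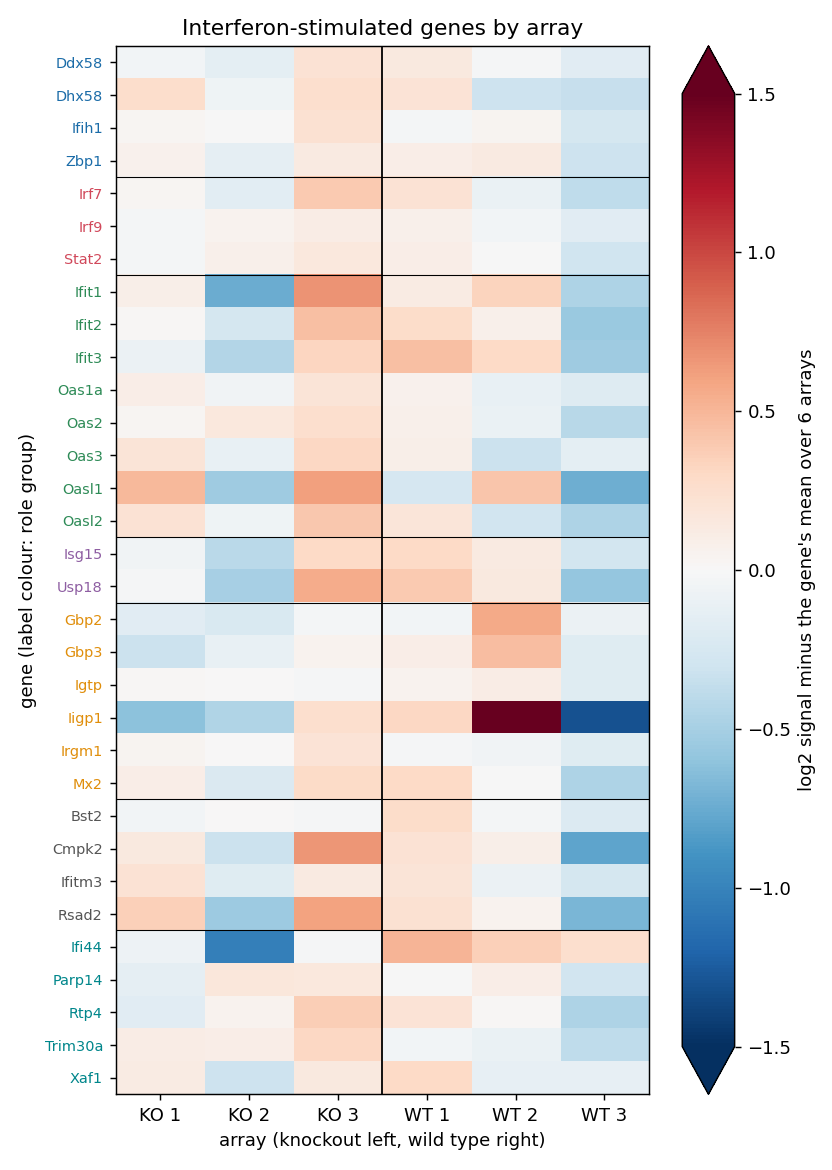
Log2 signal of each tested member (rows, grouped by role) on each array (columns, KO left and WT right) minus the gene's mean over 6 arrays, red for higher and blue for lower. WT replicate 3 is the lowest WT array for 30 of 32 members, KO replicate 3 is the highest KO array for 27, and WT replicate 2 is highest in its group for Gbp2, Gbp3, Igtp and Iigp1.

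Markers of other cells are given beside this pattern. The centred mean of 19 macrophage and monocyte markers was -0.03, 0.12 and 0.05 on the KO arrays, and 0.02, -0.03 and -0.14 on the WT arrays. It was lowest on WT replicate 3, as for the members, and highest on KO replicate 2, where the members were lowest in KO cells. The macrophage and monocyte markers had 15 positive and 4 negative differences, with a median of 0.12, as for the members. Of 9 plasmacytoid dendritic cell markers, Ccr9, Ly6d, Klk1 and Cd209a were not well above background on any array, and 4 were so on all 6 arrays. The 5 tested ones had centred means of -0.05, -0.05 and -0.12 on the KO arrays, and 0.06, 0.10 and 0.07 on the WT arrays, with the lowest limma adjusted p, 0.053, at Cox6a2 (higher in WT cells). Most of the 5 went the other way, with 3 positive differences and 2 negative ones. The differences had a median of 0.08 and ran between -1.01 and 0.28. The 12 osteoblast markers had centred means of -0.37, -1.11 and -0.44 on the KO arrays, and 0.50, 0.86 and 0.56 on the WT arrays. Their median difference was -1.18, and all KO values were below all WT values for 11 of them (10.4% of all genes). Among them 1 marker passed, lower in KO cells, with a limma adjusted p of 0.0496. The osteoblast mean was lowest on KO replicate 2, as the members were in KO cells, and among the WT arrays on WT replicate 1. The 7 tested neutrophil markers had -0.09, 0.47 and -0.24 on the KO arrays, and -0.12, 0.18 and -0.21 on the WT arrays. The 13 stromal progenitor markers had -0.16, -0.28 and 0.02 on the KO arrays, and 0.23, 0.15 and 0.04 on the WT arrays. The 4 tested lymphocyte markers had 0.003, -0.020 and 0.014 on the KO arrays, and 0.165, -0.061 and -0.100 on the WT arrays. In both of these lists the highest and lowest array of each group were those of the members. WT replicate 3 is also 1 of the 2 arrays with Xist signal, and the other, KO replicate 1, had a member mean between those of the other KO arrays. The part of cell makeup and of the animals' sex in the array-to-array pattern was not tested.

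Other genes of the pathway were read from 3 lists. Of 26 genes of interferon signalling, 21 were tested and none passed, with a median difference of 0.05. At an unadjusted limma p under 0.05, 2 were higher and 3 lower in KO cells (15.0% of all genes in either direction). All KO values were above all WT values for 6 of the 21 (12.0% of all genes) and below them for 3 (10.4%). The genes share the same 6 samples, so these counts carry no test. The interferon genes Ifng and Ifna4 were not well above background on any array. Ifnb1 and Ifnk were so on 0 KO arrays and 1 WT array, Ifna2 on 0 KO arrays and all 3 WT arrays, and the lambda interferon gene Ifnl3 on all 6 arrays. Ifna2 and Ifnl3 differed by -0.05 and -0.14, with limma adjusted p of 0.892 and 0.621. The Ifna2 values in KO cells are bounds, at -4.00, -3.98 and -4.38, against -4.00, -4.14 and -4.07 in WT cells. The lowest signals well above background were -4.15, -3.99 and -3.60 on the KO arrays, and -4.41, -4.62 and -4.59 on the WT arrays. The flags of Ifna2 therefore do not show that it was present in WT cells alone. Both chains of the type I receptor were measured. Ifnar1 differed by 0.13 and Ifnar2 by 0.14, with limma adjusted p of 0.516 and 0.434. Irf1, a transcription factor of the response to interferon gamma, differed by 0.01 with a limma adjusted p of 0.975. The lowest p in this list were those of the transcription factors Irf8 (0.25; limma adjusted p of 0.184) and Irf5 (0.31; 0.210), the lambda receptor chain Ifnlr1 (-0.65; 0.233) and the kinase Jak2 (-0.30; 0.257). Ifnlr1 was above background on 1 KO array and all 3 WT arrays. Its values on KO replicates 2 and 3, -4.70 and -4.43, are bounds, so the difference is not a measured one. With another background correction and quantile normalization it was -0.29. The remaining gene with a lower value at an unadjusted p under 0.05, named after its values were seen, was the JAK inhibitor Socs1 (-0.35; limma adjusted p of 0.274).

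All 23 genes of nucleic acid sensing were tested and none passed, with a median difference of 0.09. At an unadjusted limma p under 0.05, 2 were higher and 1 was lower in KO cells (6.94% and 8.03% of all genes). All KO values were above all WT values for 4 of the 23 (12.0% of all genes) and below them for 1 (10.4%). Aim2, a sensor of cytosolic DNA, had -0.73, -0.53 and -0.45 in KO cells, against -1.14, -0.99 and -1.10 in WT cells. The KO values all lay above the WT values, as for 12.0% of all genes. The difference of 0.51 had a standard error of 0.10 and a limma adjusted p of 0.095. Averaged over both tested Aim2 probes, however, it was 0.03 with a limma adjusted p of 0.970. Tlr9, a receptor for DNA in endosomes, differed by -0.51 and Tlr8, a receptor for RNA, by 0.24, with limma adjusted p of 0.174 and 0.295, and the DNA sensor Cgas differed by 0.25 with a limma adjusted p of 0.322.

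Of 50 other interferon-induced genes, 47 had a probe, 42 were tested and none passed, with a median difference of 0.06. At an unadjusted limma p under 0.05, 3 were higher and 1 was lower in KO cells (6.94% and 8.03% of all genes). Oas1c, a relative of Oas1a, had -0.71, -0.59 and -0.61 in KO cells, against -0.95, -1.13 and -1.17 in WT cells, a difference of 0.45 with a limma adjusted p of 0.095. Ifitm1, a relative of Ifitm3, had -1.77, -2.22 and -1.98 in KO cells, against -1.01, -1.12 and -1.48 in WT cells, a difference of -0.79 with a limma adjusted p of 0.105. In both genes the groups did not overlap, in opposite directions. Of the 42 tested genes, 3 had all KO values above all WT values (12.0% of all genes) and 1 had all below (10.4%). Ifi27l2a, a small mitochondrial protein, and Sp100, a component of nuclear bodies, differed by 0.53 and 0.36, with limma adjusted p of 0.215 and 0.295. The 42 genes had centred means of -0.03, -0.08 and 0.12 on the KO arrays, and 0.11, 0.02 and -0.14 on the WT arrays. The highest and lowest array in each group were the same as for the members, and as for the stromal progenitor and lymphocyte markers. The mean on WT replicate 1 was raised by Epsti1, which was high on that array alone. The centred medians, less moved by a single gene, were -0.02, -0.04 and 0.11 on the KO arrays. On the WT arrays they were 0.04, -0.06 and -0.13.

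**Figure D5:**
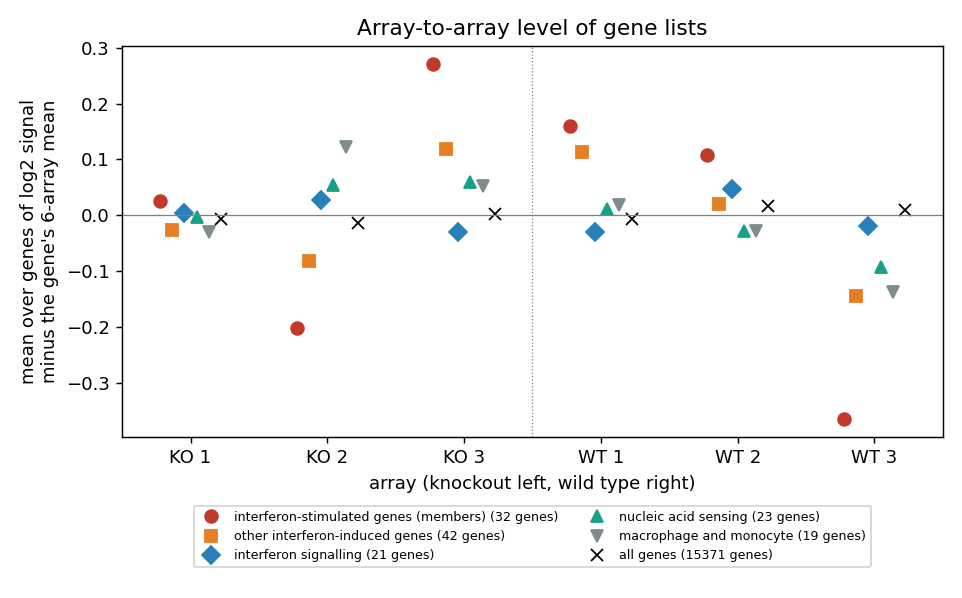
Mean over the genes of a list of the log2 signal minus the gene's mean over 6 arrays (y axis) on each array (x axis, KO left and WT right), with 1 symbol per list. The members reach 0.27 on KO replicate 3 and -0.36 on WT replicate 3, and the other interferon-induced genes have their highest and lowest arrays in the same places.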

How the data were processed

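The intensity of each spot is the scanner software's processed signal, as deposited, with outlier and background flags; the software was Agilent Feature Extraction, version 10.7.1.1 per the file headers but 9.1 per the submitters' processing notes. The deposited series table holds log2 values whose columns share 1 distribution, as after quantile normalization, which the sources used here do not state; it served as an alternative.

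From the intensities, control and outlier spots were left out, log2 of the processed signal was taken minus the array's 75th percentile, and each probe's spots were averaged. Tests covered the 28606 probes that passed the background flag throughout either group. KO and WT were compared with limma 3.58.1 in R 4.3.3 (2-sided, 3 against 3), with Benjamini-Hochberg adjustment over all tested probes. The fit was tested on simulated data. The number of arrays limits the precision. Same-numbered samples correlated with r of 0.0556, 0.154 and -0.0319 in their deviations from the group means, so the numbers were not taken to pair samples.

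All 33 members are named. Values per array follow the smallest p, largest difference and largest spread, with others given for their role; pathway genes are the up to 4 lowest p per list plus Ifnb1, Ifnar1, Ifnar2 and Irf1; 1 other gene under this rule is not reported here. Members and lists were chosen with earlier results of these data known. Promoters are RefSeq's (GRCm38.p6); probe positions are the files' (mm9). Alternatives covered background correction, scaling, the deposited table, filters, the variance model, the probe rule, a replicate block, sex and each array left out.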

Additional observations from a re-analysis of the deposited data

Results flagged for a closer look

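Signal appeared on 1 KO array each in 2 dim probes of members that were not used in the comparison, since neither was well above background on all arrays of a group. A second Stat2 probe gave -3.70 on KO replicate 2, where it was well above background, against -4.37 at most on the WT arrays, where it was not. A second Xaf1 probe gave -2.08 on KO replicate 1, where it was well above background, against -4.57 at most on the WT arrays, where it was not. The brightest probes of both genes overlapped between the groups. The rule asked only for signal on a KO array and on no WT array. Untested probes of Rsad2 and Iigp1 showed the reverse, well above background on 1 WT array each and on 0 KO arrays. An untested Ddx58 probe was so on 2 WT arrays and on 0 KO arrays.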

How the results depend on the processing

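No member and no gene of the 3 pathway lists passed the adjusted threshold in limma in any of the 17 fits run, and the lowest adjusted p of a member lay between 0.138 and 0.378. Over all genes, the 12 calls became 142 with normexp and quantile normalization, 153 with a variance trend, 28 when the probes of a gene were averaged, 6 with probes above background on all arrays, 0 without a filter (7810 at an unadjusted p under 0.05), 0 with the replicate block (2354) and 0 with a sex term (2408); leaving out 1 array gave 0 to 16, with 0 without WT replicate 2 and 1 without WT replicate 1. The replicate block also left 0 members called. The member median was 0.08 with normexp and quantile normalization and 0.11 with the deposited table; leaving out 1 array gave -0.03 to 0.21, and leaving out the 2 arrays with Xist signal gave -0.08. Slide and scan could not be blocked, since there was 1 of each. Signs turned for some genes, Oasl1, Iigp1 and Rsad2 among them. With normexp the difference was 0.011 for Bst2, -0.024 for Ddx58 and -0.021 for Ifit1. With the deposited table it was -0.001 for Ifit1 and -0.001 for Irf1. With averaged probes it was -0.35 for Irf1 and -0.29 for Zbp1. Without the 2 arrays with Xist signal it was -0.029 for Ddx58, -0.27 for Ifit1, -0.084 for Ifit2, -0.075 for Ifitm3, -0.084 for Igtp, -0.11 for Mx2, -0.039 for Oasl1, -0.12 for Rsad2, -0.24 for Usp18 and -0.12 for Zbp1. Leaving out 1 array in turn gave -0.14 to 0.11 for Bst2, -0.08 to 0.11 for Ddx58, -0.33 to 0.38 for Ifit1, -0.11 to 0.31 for Ifit2, -0.44 to 0.051 for Ifit3, -0.08 to 0.065 for Igtp, -1.34 to 0.22 for Iigp1, -0.053 to 0.071 for Irf1, -0.28 to 0.07 for Isg15, -0.092 to 0.29 for Mx2, -0.006 to 0.61 for Rsad2, -0.026 to 0.31 for Rtp4, -0.25 to 0.28 for Usp18, -0.11 to 0.12 for Xaf1 and -0.10 to 0.13 for Zbp1. The cause was not tested.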

Other observations

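Cxcl10, Ccl5 and Epsti1, all interferon-induced, were high on 1 or 2 WT arrays; they were chosen after their values were seen. Cxcl10, which attracts activated T cells, had -0.59, -1.15 and -0.20 in KO cells, against -0.65, 1.07 and -1.12 in WT cells, so it was highest on WT replicate 2, as were Gbp2, Gbp3, Igtp and Iigp1. Ccl5, another T cell attractant, had -0.84, -1.19 and -0.72 in KO cells, against -1.10, 0.38 and 0.65 in WT cells, so it was high on WT replicate 2 and on WT replicate 3, which was the lowest WT array for 30 of 32 members. Epsti1 had -3.83, -3.87 and -3.49 in KO cells, against -0.08, -4.01 and -4.06 in WT cells, with WT replicate 1 alone high.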
